A study of Mus musculus with 4 samples.

Results

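The genes described here were 10 genes of milk production and of the prolactin pathway that drives it: the caseins Csn1s1, Csn2 and Csn3, whey acidic protein (Wap), alpha-lactalbumin (Lalba), the prolactin receptor (Prlr), the transcription factors Stat5a and Stat5b, butyrophilin (Btn1a1) and xanthine dehydrogenase (Xdh). They were read through every non-control probe that carries one of these 10 gene names in the scanner files, which gave 17 probes of 41174 on the array, and 10 genes of 28146 gene names. The study asked which genes depend on the glucocorticoid receptor (GR) when no glucocorticoid is present, and compared a pair of stable lines of EPH-4, a non-malignant mouse mammary epithelial line that arose from spontaneously immortalized gland cells. EV-50 carried the empty H1-2 vector and a puromycin marker, and shGR-19 carried the same marker with the H1-2 vector expressing an shRNA against GR. Both lines were grown without serum or glucocorticoid in DMEM/F-12 with 2 µg/ml puromycin, and no prolactin treatment is stated for the array samples. Each line is 1 clone, so the clone and the shRNA cannot be told apart. RNA of each line, 300 ng per sample, was amplified and labelled with Cy3 in duplicate. The labelled product was hybridized to Agilent Whole Mouse Genome arrays, which gave 2 arrays per line. The sources do not state whether the duplicates were separate cultures, so the p-values measure only the spread between these arrays, which may be technical.

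Milk genes are switched on late in pregnancy. Prolactin binds its receptor on the alveolar cell, the kinase JAK2 attached to the receptor phosphorylates STAT5A and STAT5B, and the STAT5 dimers enter the nucleus and bind the promoters of milk protein genes, where ligand-bound GR is a well-known partner. Caseins carry calcium and phosphate in micelles, whey acidic protein and alpha-lactalbumin are whey proteins, and alpha-lactalbumin is also the regulatory part of lactose synthase. Butyrophilin and xanthine dehydrogenase lie together on the membrane that wraps the milk fat globule.

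The sequences of 6 probes are given because they show which part of each message was read. These probes are printed whole, 5′ to 3′, in the sense of the transcript.

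Csn3 A_51_P227280: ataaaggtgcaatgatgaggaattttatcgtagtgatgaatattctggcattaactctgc

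Wap A_51_P407704: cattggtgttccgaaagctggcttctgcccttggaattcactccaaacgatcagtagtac

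Lalba A_51_P156232: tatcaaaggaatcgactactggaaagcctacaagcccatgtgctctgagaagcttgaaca

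Prlr A_52_P458279: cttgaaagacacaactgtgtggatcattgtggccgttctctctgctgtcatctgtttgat

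Stat5b A_51_P281938: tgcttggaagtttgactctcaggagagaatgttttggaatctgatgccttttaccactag

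Xdh A_52_P249965: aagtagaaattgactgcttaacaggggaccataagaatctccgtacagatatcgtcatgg

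In the mm9 coordinates of the array annotation the Prlr probe lay on chr15:10255629-10255688, plus strand, a run of 60 bases with no gap. The other 5 probes of 60 bases covered longer spans, so each joined more than 1 exon of its gene. Csn3 A_51_P227280 covered chr5:88354698-88356650, plus strand, Wap A_51_P407704 covered chr11:6536820-6537194, minus strand, and Lalba A_51_P156232 covered chr15:98311142-98311981, minus strand. Stat5b A_51_P281938 covered chr11:100648654-100649702 and Xdh A_52_P249965 covered chr17:74242100-74242974, both on the minus strand. For the probes farther 3′ on which the results below turn, the first 30 of 60 bases are shown.

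Csn3 A_51_P227275: gcaattttcacagattcagatctttctcgt

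Prlr A_52_P602987: gactttccattctgaaaacaatgttgattc

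Xdh A_51_P312121: ttgagtaattctgggtgattctgagtccat

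These 3 probes each lay on 60 unbroken bases of mm9, at chr5:88361449-88361508 on the plus strand for Csn3, chr15:10263009-10263068 on the plus strand for Prlr and chr17:74233511-74233570 on the minus strand for Xdh.

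The authors deposited both the scanner output of the 4 arrays and a table of processed log2 values for the same 4 samples. For the scanner output, a level is log2 of the background-subtracted signal with the array's own 75th percentile set to 0. In the table each probe is given relative to its own median over the samples, so that only differences can be read from it. A difference is shGR-19 minus EV-50 on the log2 scale, and a member was called at a limma adjusted p below 0.01. These sources did not give the same picture. The comparison used 10267 bright probes, well above background on all 4 arrays at a mean level above 0. For these the scanner arrays labelled replicate 1 of the lines hardly differed. Their difference had a SD of 0.0801, and 0 of these probes were more than 2-fold apart. The arrays labelled replicate 2 differed with a SD of 0.446, and 309 of these probes were more than 2-fold apart. In the table the lines differed by a SD of 0.443 and 0.447 for these pairs, and duplicates by 0.0961 and 0.0854. Over the same probes the table difference correlated with the scanner difference at r = 0.131 for the replicate 1 arrays and 0.954 for the replicate 2 arrays. With the dimmer tested probes included, 601 (2.46%) were more than 2-fold higher and 272 (1.11%) lower in shGR-19 in the replicate 1 scanner pair. In the replicate 2 scanner pair 579 (2.37%) were higher and 771 (3.16%) lower. The 4 probes of Nr3c1, the gene for GR, differed by -0.35 to -0.20 between the scanner arrays labelled replicate 1 (n = 1 array per line), by -1.95 to -1.47 between those labelled replicate 2, and by -1.94 to -1.41 in the table (limma adjusted p = 0.00215 to 0.00539). How the table was made from arrays of these labels is not settled by the sources, so each result is given from both.

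In these cells Csn1s1 gave no clear signal and Csn2 gave one on a single array, while Csn3, Wap, Lalba, Stat5a and Stat5b were read in both lines. The table called Csn3 higher in shGR-19, by 0.71, and Xdh lower, with a difference of -2.49, and Xdh was also lower in shGR-19 on the scanner arrays labelled replicate 2 but not on those labelled replicate 1. The 2 far 3′ probes of Prlr were each well above background on 1 EV-50 array and on no shGR-19 array, and the Prlr probe nearer the 5′ end was not called. Of the 17 probes, 9 were well above background on all 4 arrays and 3 on none, and the 10 probes tested, from 7 genes, passed the background filter on both duplicates of EV-50, of shGR-19 or of both. On the EV-50 replicate 1 array the lowest signal well above background had a level of -4.76, against -6.08 to -5.85 on the other 3, and dim probes such as those of Csn1s1 and Csn2 read higher there than on the other EV-50 array. The scanner files gave 0 called members of 10, and limma called 0% of 24421 probes there, with 209 probes (0.856%) at an unadjusted p below 0.05 and a smallest adjusted p of 0.928. The table gave 2 called members of 10, Csn3 higher and Xdh lower in shGR-19, beside 11.6% of all probes tested (5.53% higher and 6.04% lower). At an adjusted p below 0.05 the table gave 5 of the 10, beside 36.5% of all probes, and with no filter on background it gave 0 of the 17 at 0.01, beside 0.104%. The median difference of the 10 probes was -0.091 in the scanner files and -0.22 in the table, beside 0.018 and 0.0087 over all probes tested. The groups did not overlap for 3 of the 10 in the scanner files, beside 17.9% of probes, and for 8 of the 10 in the table, beside 71.9%. In the scanner files the difference between lines was smaller than the mean difference between duplicates for 7 of the 10, and in the table for 2 of the 10. The share over all probes tested is not given here, so these counts are not read as a trait of the members.

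**Figure D1:**
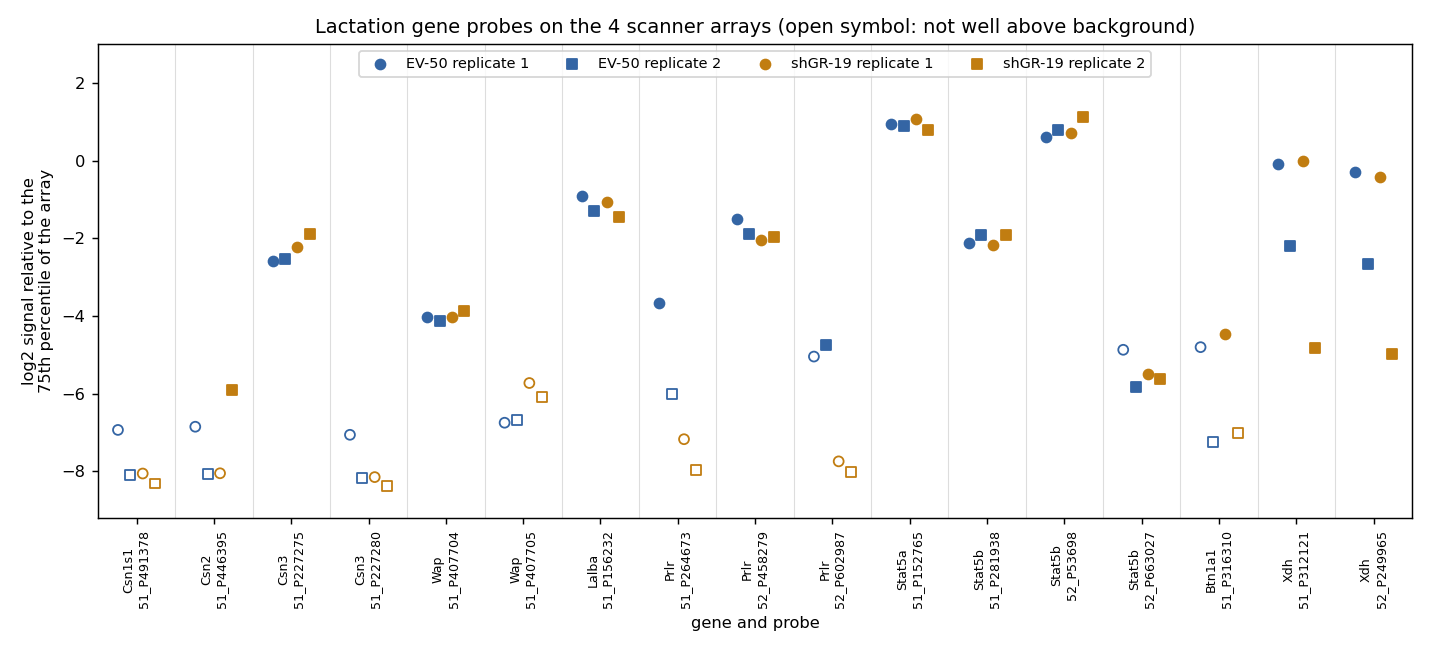
Level of each of the 17 probes on the 4 scanner arrays, as log2 signal with the 75th percentile of each array at 0 (vertical axis), by gene and probe (horizontal axis). Blue is EV-50, brown is shGR-19, circles are replicate 1, squares are replicate 2, and an open symbol was not well above background. The Xdh probes read lower on the replicate 2 arrays than on the replicate 1 arrays, and Csn1s1 was not well above background on any array. Levels are compared between arrays for 1 probe, not between probes.

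The casein genes were mostly at background. Csn1s1, which encodes alpha-S1-casein, read -6.94 and -8.09 on the EV-50 arrays and -8.06 and -8.31 on the shGR-19 arrays (scanner levels, replicates 1 and 2 in this order throughout), and none of the 4 was well above background. Csn2, which encodes beta-casein, read -6.85 and -8.08 in EV-50 and -8.05 and -5.92 in shGR-19. Only the last of these was well above background, and its bound against EV-50 was under 1, so no fold is given. In the table Csn2 stood at 0.13 and 1.77 in EV-50 and at -0.13 and -0.17 in shGR-19, so that the high column was an EV-50 one, whereas the scanner array with the signal was an shGR-19 one.

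Csn3, which encodes kappa-casein, the protein that stabilizes the casein micelle, had 2 probes that behaved differently. The 3′ probe A_51_P227275 was well above background on all 4 arrays, at -2.58 and -2.54 in EV-50 and -2.22 and -1.88 in shGR-19, and both shGR-19 arrays lay above both EV-50 arrays. In the table the same probe stood at -0.36 and -0.34 in EV-50 and 0.34 and 0.39 in shGR-19. Its difference was 0.71 (SE 0.049, n = 2 per line, 1.63-fold, limma adjusted p = 0.00562) in the table and 0.51 (SE 0.23, limma adjusted p = 1.00) in the scanner files, and it was positive for either pair of scanner arrays taken alone, at 0.36 and 0.66. The call was lost with any 1 table column left out (limma adjusted p = 0.0453 to 0.0486) and with all probes kept (0.0227). In bulk RNA of this kind fewer cells that express a gene and less RNA per cell cannot be told apart. The 5′ probe A_51_P227280, which begins at base 40 of its transcript, was well above background on no array, with levels between -8.38 and -7.06. In the table it stood at 2.42 on 1 EV-50 column alone and between -0.62 and 0.45 on the other 3, a spread wider than the difference between the lines (-1.07, SE 1.21, limma adjusted p = 0.565 with all probes kept).

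The whey protein genes gave a reading in both lines with little between them. Wap A_51_P407704 was well above background on all 4 arrays, at -4.04 and -4.13 in EV-50 and -4.03 and -3.89 in shGR-19, and the shGR-19 arrays lay just above the EV-50 arrays. The table difference was -0.35 (SE 0.19, limma adjusted p = 0.228) and the scanner difference 0.13 (SE 0.21, limma adjusted p = 1.00), so that its direction depended on the source. The second Wap probe, A_51_P407705, was well above background on no array, at levels of -6.75 to -5.73. Lalba was well above background on all 4 arrays, at -0.92 and -1.30 in EV-50 and -1.08 and -1.46 in shGR-19. On these arrays the values overlapped, with the replicate 1 array of each line above its replicate 2 array. Its difference was -0.26 (SE 0.098, limma adjusted p = 0.126) in the table and -0.16 (SE 0.27, limma adjusted p = 1.00) in the scanner files.

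Promoter windows of 300 bases, from 250 before to 50 after the start, were taken for the members from RefSeq (GRCm38.p6) and searched for TTCNNNGAA, the palindrome that STAT factors are known to bind, which reads alike on both strands. It was found in 3 of 11 windows of 7 member genes, beside 2726 of 32851 windows (8.30%) in the whole table. The windows of Csn1s1 and Csn2 held it 100 and 93 bases before the start, and 1 of the 3 Prlr windows held it 110 bases before the start. Those 3 windows are printed 5′ to 3′ in the sense of the gene, with the match in capitals, since they belong to the casein genes without a clear reading and to the receptor gene, whose 3′ probes were well above background on single EV-50 arrays only. No match was found in the windows of Wap, Lalba, Stat5a and Stat5b, nor in the other 2 of Prlr. A match is a match of letters, not a binding site. Windows for Csn3, Btn1a1 and Xdh are not given here.

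Csn1s1, chr5:87665958-87666257, plus strand: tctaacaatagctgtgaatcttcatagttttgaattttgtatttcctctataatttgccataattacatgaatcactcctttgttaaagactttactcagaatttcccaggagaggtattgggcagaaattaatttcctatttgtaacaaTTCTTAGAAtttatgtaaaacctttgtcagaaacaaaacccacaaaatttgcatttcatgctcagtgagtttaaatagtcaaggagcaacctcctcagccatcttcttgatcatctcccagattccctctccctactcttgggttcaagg

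Csn2, chr5:87699376-87699675, minus strand: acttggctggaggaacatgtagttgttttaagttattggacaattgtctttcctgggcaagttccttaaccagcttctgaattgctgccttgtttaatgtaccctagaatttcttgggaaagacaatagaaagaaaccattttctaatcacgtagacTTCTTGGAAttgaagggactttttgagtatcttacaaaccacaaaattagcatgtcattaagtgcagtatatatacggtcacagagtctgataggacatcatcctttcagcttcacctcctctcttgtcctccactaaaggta

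Prlr, chr15:10223656-10223955, plus strand: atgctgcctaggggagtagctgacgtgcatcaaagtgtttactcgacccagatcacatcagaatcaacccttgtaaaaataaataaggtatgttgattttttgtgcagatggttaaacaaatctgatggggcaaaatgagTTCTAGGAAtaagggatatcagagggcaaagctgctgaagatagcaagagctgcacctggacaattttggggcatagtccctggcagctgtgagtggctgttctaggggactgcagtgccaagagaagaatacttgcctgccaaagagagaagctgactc

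The prolactin receptor was read by 3 probes, of which 1 was well above background in both lines. Prlr messages exist in a long form and in short forms that share the outer part and the membrane segment of the receptor and differ farther 3′. The probe A_52_P458279, at base 1425 of the reference transcript, was well above background on all 4 arrays, at -1.51 and -1.90 in EV-50 and -2.04 and -1.96 in shGR-19. Both shGR-19 arrays lay below both EV-50 arrays, the nearest of them only narrowly. Its difference was -0.29 (SE 0.24, limma adjusted p = 1.00) in the scanner files and -0.30 (SE 0.049, limma adjusted p = 0.0228) in the table, and it was not called. Without EV-50 replicate 1 the scanner difference was -0.097 and without EV-50 replicate 2 it was -0.49.

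The other 2 Prlr probes lie far 3′ on the same transcript, at base 6561 for A_52_P602987 and at base 10099 for A_51_P264673 (chr15:10266547-10266606, plus strand, mm9). A_52_P602987 read -5.05 and -4.74 in EV-50 and -7.75 and -8.03 in shGR-19, and was well above background on the EV-50 replicate 2 array only. The mean of the EV-50 arrays was 2.11-fold above the lowest signal well above background on the shGR-19 arrays. That mean takes in the replicate 1 array, on which the probe was not well above background. Only 1 array gave a clear signal, so the figure is not a lower bound. The differences of -2.70 in the replicate 1 pair and -3.29 in the replicate 2 pair are between signals of which 1 or both were not well above background. Over the probes well above background on no array, the same differences ran from -1.34 to 0.46 (5th to 95th percentile, median -1.14) in the replicate 1 pair and from -1.13 to 0.80 (median -0.22) in the replicate 2 pair. Those probes never passed the background flag, while this probe passed it on an EV-50 array. The ranges therefore do not show whether its differences exceed noise. In the table A_52_P602987 stood at 1.35 and 1.38 in EV-50 and -1.35 and -1.41 in shGR-19. That is a difference of -2.75 (SE 0.059, limma adjusted p = 0.0103 with all probes kept), to be read with the same limit on background. A_51_P264673 read -3.68 and -6.00 in EV-50, where only the replicate 1 array was well above background, and -7.18 and -7.96 in shGR-19. For A_51_P264673 the same figure was 2.18-fold, again with 1 of the 2 EV-50 arrays well above background and so not a lower bound. In the table it stood at 0.79 and 0.46 against -1.18 and -0.46, a difference of -1.45 (SE 0.32, limma adjusted p = 0.0869 with all probes kept). Neither entered the main test, because neither was well above background on both arrays of a line.

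**Figure D2:**
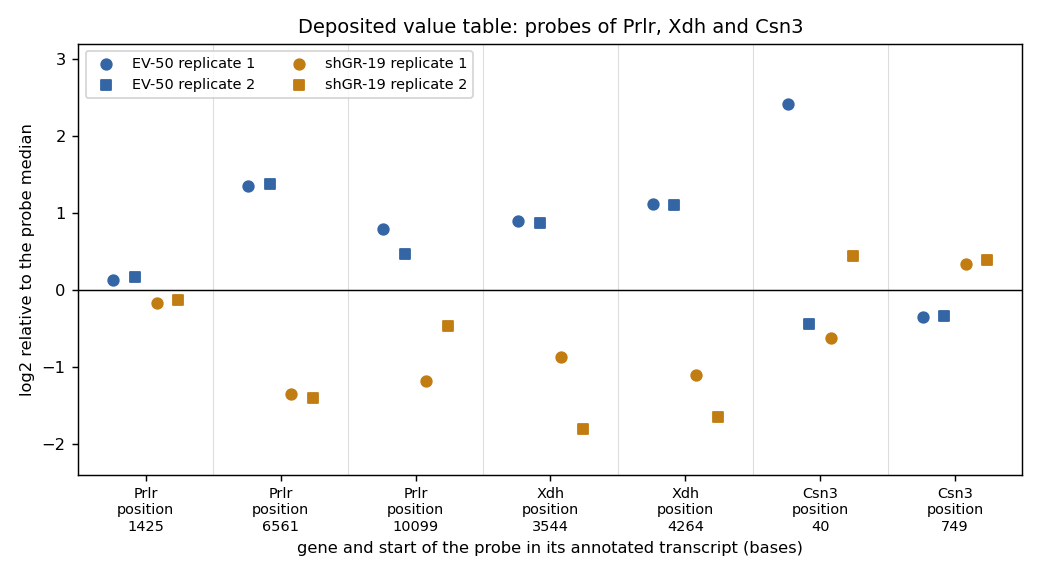
Deposited table values (vertical axis, log2 relative to the median of each probe) for the probes of Prlr, Xdh and Csn3, ordered by the start of the probe in its transcript in bases (horizontal axis). Points are the 4 columns, blue for EV-50 and brown for shGR-19. The 3 Prlr probes differ by -0.30, -2.75 and -1.45 from 5′ to 3′, of which the latter 2 were well above background on 1 scanner array each, and 1 EV-50 column alone stands at 2.42 for the 5′ Csn3 probe.

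The 5 genes whose pattern over the 4 scanner arrays was most like that of the brightest Prlr probe, by root mean square distance after centring, were ENSMUST00000089106, L1Md-Tf30, Gsg1, AW552889 and 2310021H06Rik, at distances of 0.018 to 0.031 among 16744 genes with a median of 0.29. In the table their differences ran from -0.0079 to 0.32 beside -0.30 for Prlr, so this likeness was not seen there.

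The STAT5 genes were read clearly in both lines. Stat5a, which encodes the STAT5 protein most tied to milk gene expression, read 0.94 and 0.89 in EV-50 and 1.06 and 0.78 in shGR-19 at probe A_51_P152765 (chr11:100746144-100746203, plus strand). The shGR-19 values lay on either side of the EV-50 values. The difference was -0.0018 (SE 0.23, limma adjusted p = 1.00) in the scanner files and -0.19 (SE 0.055, limma adjusted p = 0.0757) in the table.

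Stat5b, its close relative, had 3 probes. A_52_P53698 (chr11:100642099-100642158, minus strand) read 0.60 and 0.79 in EV-50 and 0.70 and 1.11 in shGR-19, and the groups overlapped. The table put it 0.39 higher in shGR-19 (SE 0.050, limma adjusted p = 0.0143), which was not a call at 0.01, and the scanner files 0.21 higher (SE 0.25, limma adjusted p = 1.00). The exon-joining probe A_51_P281938 read -2.12 and -1.93 in EV-50 and -2.17 and -1.93 in shGR-19, with a difference of -0.024 (SE 0.23, limma adjusted p = 1.00) in the scanner files and -0.11 (SE 0.13, limma adjusted p = 0.548) in the table. Thus the probes of Stat5b that were well above background on all arrays did not share a direction.

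The last Stat5b probe, A_52_P663027 (chr11:100682720-100682779, minus strand), was designed from a separate cDNA and read near the detection limit, at -4.87 and -5.84 in EV-50 and -5.49 and -5.62 in shGR-19. Its table difference of 1.87 (SE 1.52, limma adjusted p = 0.401) came from 1 shGR-19 column at 3.83, with the other 3 columns between -0.28 and 0.18. Without that column the difference was -0.13.

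Of the milk fat membrane genes, Xdh was called at 1 of its 2 probes in the table. Xanthine dehydrogenase oxidizes purines and also helps to build the milk fat globule. A_51_P312121, at base 4264 of its transcript, read -0.085 and -2.21 in EV-50 and -0.020 and -4.82 in shGR-19, well above background on all 4 arrays. The replicate 1 arrays of the lines were therefore nearly equal, and the replicate 2 arrays differed by -2.61. In the scanner files the groups overlapped and the difference was -1.27 (SE 1.79, limma adjusted p = 1.00). In the table the probe stood at 1.11 and 1.11 in EV-50 and -1.11 and -1.65 in shGR-19. It was called there, with a difference of -2.49 (SE 0.21, 5.63-fold lower, limma adjusted p = 0.00729), beside 2.39% of probes called more than 2-fold lower and 1.87% called more than 2-fold higher. This call too was lost with any 1 table column left out (limma adjusted p = 0.0268 to 0.0508) and with all probes kept (0.0249).

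The second Xdh probe, A_52_P249965, at base 3544, followed the first. It read -0.30 and -2.67 in EV-50 and -0.42 and -4.99 in shGR-19. Again the replicate 1 arrays were close, with a difference of -0.11, and the replicate 2 arrays differed by -2.32. Its table values were 0.90 and 0.87 in EV-50 and -0.87 and -1.80 in shGR-19, a difference of -2.22 (SE 0.35, limma adjusted p = 0.0216) that was not called.

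Xdh also differed between arrays of the same line. Replicate 2 minus replicate 1 was -2.12 and -2.37 in EV-50 and -4.80 and -4.58 in shGR-19, for the probes in the same order. In the table the SD of the EV-50 duplicates was 0.0015 and 0.022.

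Btn1a1, the milk fat globule protein that binds xanthine dehydrogenase, read -4.81 and -7.25 in EV-50 and -4.46 and -7.02 in shGR-19 at A_51_P316310 (chr13:23549561-23549620, minus strand), and was well above background on the shGR-19 replicate 1 array alone. Both replicate 1 arrays lay above both replicate 2 arrays, whichever the line. No fold is given, since its bound was under 1. In the table it differed by -0.27 (SE 0.069, limma adjusted p = 0.0982 with all probes kept).

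**Figure D3:**
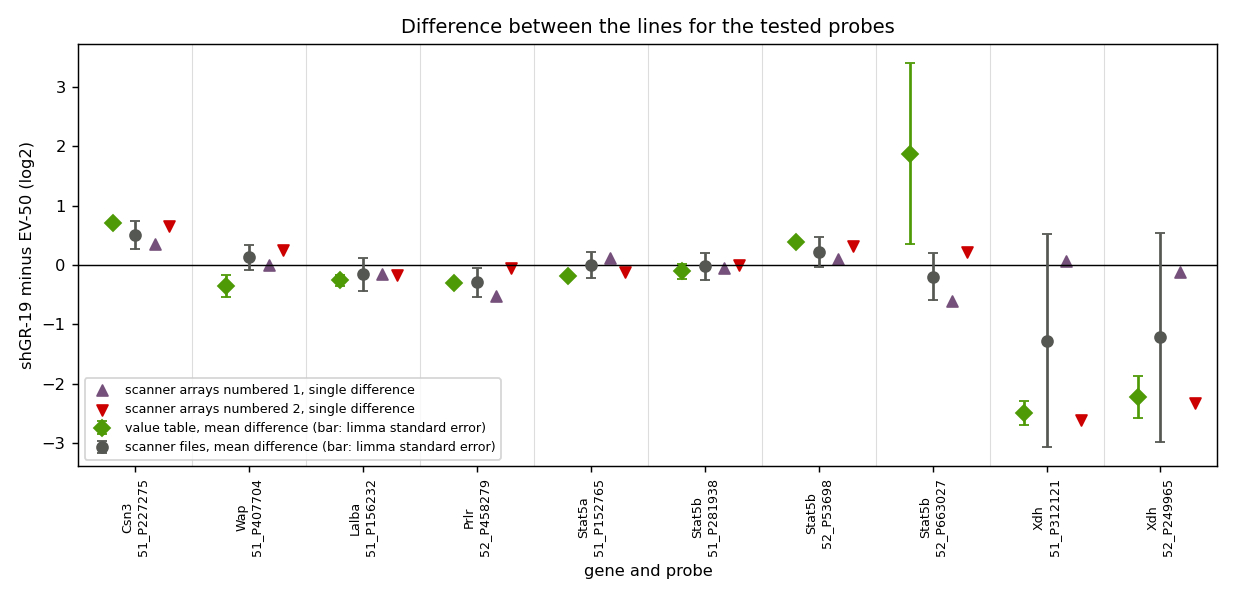
Difference between the lines (vertical axis, shGR-19 minus EV-50, log2) for the 10 probes tested (horizontal axis). Diamonds are the table and circles the scanner files, each a mean of 2 per line with the limma standard error as the bar, and triangles are single pairs of scanner arrays. Csn3 A_51_P227275 lies above 0 by each measure, and the Xdh probes lie below -2 in the table and in the replicate 2 pair but near 0 in the replicate 1 pair.

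The genes around these members were taken from 7 lists of lactation genes, with the brightest tested probe of each gene. Over the lists 80 genes were tested and limma called 21 in the table, beside 11.6% of all probes, and 0 in the scanner files. The 11.6% counts every tested probe, not the brightest of each gene, so the shares are not alike. The 21 include Nr3c1, the targeted gene. With any 1 table column left out, with all probes kept, or with the replicate number as a block, 0 list genes were called. The table is used for the counts that follow, and each scanner difference is given as that of the replicate 1 pair and then of the replicate 2 pair.

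Other genes of prolactin and STAT5 signalling had 16 tested members, of which 6 rose, 1 fell and 9 were not called (median 0.27). Socs1, a feedback inhibitor of JAK kinases, rose most, by 1.49 (SE 0.089, limma adjusted p = 0.00468), with scanner differences of 0.10 and 1.31. The other called members were named after their values were seen, with scanner differences in brackets. Jak2, the receptor's kinase, stood at 0.56 (-0.11 and 0.75, of opposite signs). Socs3, a further feedback inhibitor, stood at 0.71 (0.078 and 0.71), and the phosphatase Ptpn1 at 0.67 (0.020 and 0.58). The caveolar protein Cav1 stood at 0.66 (0.0087 and 0.58) and the repressor Bcl6 at 0.84 (0.063 and 0.79). The growth hormone receptor Ghr stood at -0.96 (-0.048 and -0.98). Elf5, a factor that directs alveolar cells, the cytokine Tnfsf11 and the receptor Erbb4, genes that act with or below prolactin in the gland, were well above background on no array.

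Among transcription factors of alveolar and luminal cells, 11 genes were tested, with 1 called higher and 3 lower. Id2, which alveolar development needs, fell by 1.85 (SE 0.087, limma adjusted p = 0.00359), with scanner differences of 0.064 and -1.89. Nr3c1 itself, the targeted gene, fell by 1.94 at its brightest probe. The other called genes, named after their values were seen, were Cebpb at -0.81 and Gata3 at 0.67. Their scanner differences had opposite signs, at 0.12 and -0.69 for Cebpb and at -0.043 and 0.51 for Gata3. Elf5, Foxa1 and Pgr were well above background on no array.

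The genes of milk fat synthesis and secretion gave 1 call each way among 17 tested, and their median was -0.33. The brightest were Fasn, the fatty acid synthase, at -0.28 (SE 0.083, limma adjusted p = 0.0773), and Scd2, a fatty acid desaturase, at -0.34 (SE 0.050, limma adjusted p = 0.0185), and neither was called. The called genes, named after their values were seen, were Dgat2, a triglyceride-forming enzyme, at -0.96 and Mfge8, a milk fat globule protein, at 0.67. Scanner differences were 0.26 and -1.04 for Dgat2, of opposite signs, and 0.0071 and 0.50 for Mfge8. The genes of lactose synthesis also gave 1 call each way among 9 tested, with a median of 0.048. These were Slc35a2, which carries UDP-galactose into the Golgi, at 0.54 and Hk2, a hexokinase, at -0.65. Again the scanner differences had opposite signs, at -0.12 and 0.66 for Slc35a2 and at 0.13 and -0.87 for Hk2. Pgm2, a phosphoglucomutase among the brightest there, differed by -0.0086 and was not called.

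Of 10 other milk protein genes, 6 were tested and 3 were well above background on no array, the caseins Csn1s2a and Csn1s2b and the mucin-like Glycam1. Spp1, osteopontin, the brightest, fell by 0.94 (SE 0.046, limma adjusted p = 0.00364), with scanner differences of 0.043 and -0.95, and Mfge8 rose as above. In the list of transport and tight junctions 11 genes were tested, with 1 called higher and 1 lower. Slc7a5, an amino acid transporter, rose by 1.01 (SE 0.060, limma adjusted p = 0.00466), and its scanner differences of 0.35 and 0.87 were both positive. Aqp3, a water and glycerol channel, fell by 1.65 (SE 0.068, limma adjusted p = 0.00322), with scanner differences of 0.080 and -1.53.

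Of the genes of involution, the loss of milk-making cells after weaning, 12 were tested, with 3 called higher and 0 lower. Mmp2, a matrix protease, rose by 2.31 (SE 0.15, limma adjusted p = 0.00515), but its scanner differences of -1.39 and 1.62 had opposite signs. Its probe was well above background on 3 arrays only, at low levels of -4.19 and -5.80 in EV-50 and -5.58 and -4.18 in shGR-19. Cebpd, a factor induced early in involution, rose by 1.84 (SE 0.051, limma adjusted p = 0.00222), with scanner differences of 0.10 and 1.81. Tgfb3, the remaining call, named after its value was seen, stood at 0.48, with scanner differences of 0.14 and 0.46.

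**Figure D4:**
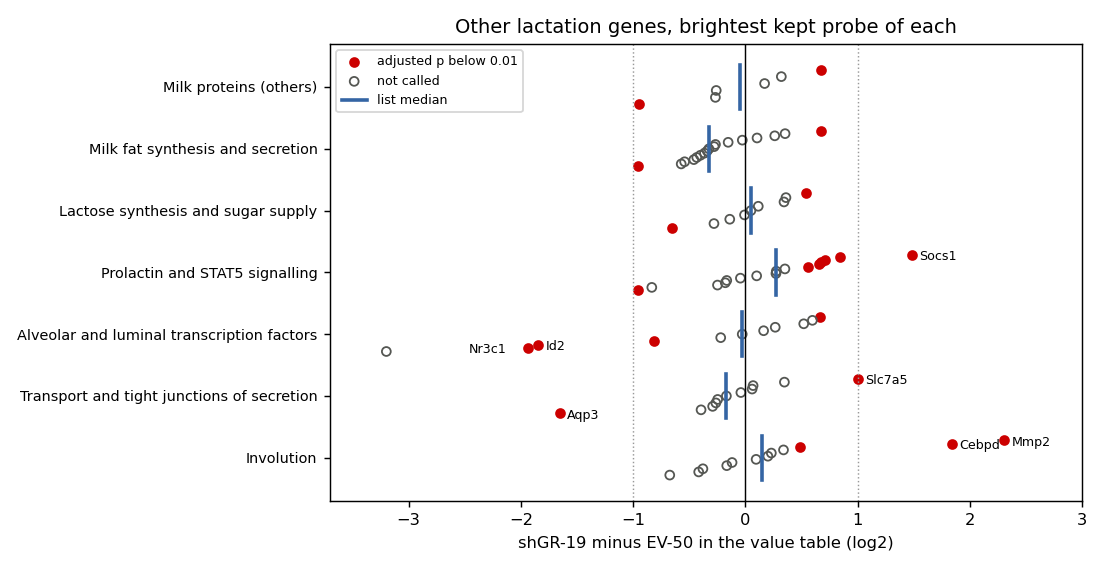
Table difference between the lines (horizontal axis, shGR-19 minus EV-50, log2) for each tested gene of the 7 lists (vertical axis). Filled red points had a limma adjusted p below 0.01, open points did not, the blue bar is the list median and dotted lines mark a 2-fold difference. The names are those of the called genes more than 2-fold apart, with Socs1, Slc7a5, Cebpd and Mmp2 on the higher side and Id2, Nr3c1 and Aqp3 on the lower side.

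The label of the cells was checked against marker genes. Of 7 luminal epithelial markers on the array, 6 were well above background on all 4 arrays (Krt8, Krt18, Epcam, Cdh1, Cldn3 and Cldn7) and none was called. Of 7 basal or myoepithelial markers on the array, 4 were also well above background on all 4 arrays (Krt5, Krt14, Trp63 and Acta2). Of the 5 tested, Krt14 alone was called in the table and fell by 1.13, with scanner differences of 0.024 and -1.18. The defining markers Adipoq of fat cells, Ptprc of leukocytes, Pecam1 and Cdh5 of endothelium and Dcn of fibroblasts were well above background on no array. Of 6 fibroblast markers 2 were tested and both were called in the table, Col1a2 at 3.27 and Pdgfra at 1.16. The Pdgfra probe was well above background on 3 arrays only, at -5.74 and -3.99 in EV-50 and -5.00 and -2.83 in shGR-19. The summed scanner signal of the 6, relative to the 75th percentile, was 1.69 and 3.11 in EV-50 and 1.63 and 34.4 in shGR-19. Col1a2 alone made up 1.60, 2.94, 1.56 and 30.4 of these sums, and Col1a1, Col3a1, Lum and Dcn were not tested. The sum was highest on the shGR-19 replicate 2 array, on which Xdh, Id2 and Aqp3 read lowest, and its part in those results was not tested.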

How the data were processed

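EV-50 and shGR-19 RNA was read on 4 one-colour arrays. The authors deposited the intensity of each spot, background-subtracted by Agilent Feature Extraction 10.5.1.1 and left unscaled between arrays. The log2 values of the deposited table came from GeneSpring and are centred on each probe's median. No spot was saturated. Well above background were 21944 to 25763 of 41174 probes per array, and precision is limited by having 2 arrays per line.

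Control spots and spots marked as outliers were dropped, spots of a probe were averaged on log2, and the 75th percentile of each array was subtracted. The probes kept (24421) passed the background flag on both duplicates of EV-50, of shGR-19 or of both. Both sources were fitted with limma 3.58.1 in R 4.3.3 (lmFit, eBayes, Benjamini-Hochberg over all kept probes), all probes of a member being reported. Counts over all probes also used a 2-fold threshold, as did the naming of list genes, at most 4 per list and otherwise the 2 brightest, of which 1 is not reported here. The smallest p of an exact permutation test here is 0.333, so none was run. For a line with a probe well above background on neither array, the fold used the lowest signal well above background there. It is a lower bound only where the other line was well above background on both arrays. That was not so for the far 3′ Prlr probes. The step was tested on simulated data. Alternatives were normexp with an offset of 50, quantile normalization, other percentiles and filters, trend and robust prior (statmod 1.5.0), a replicate block, left-out arrays and an adjusted p below 0.05. Members and lists were chosen with earlier results of these data known.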

Additional observations from a re-analysis of the deposited data

How the results depend on the processing

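In the table the counts of called probes depended on the settings. The probe counts of this paragraph and the next have the 2-fold limit, and the member and list gene counts do not, so they are not alike. Without that limit the main fit called 2825 probes. Against 1040 probes called more than 2-fold apart, 2 called members and 21 called list genes of 80, leaving out any 1 column gave 0 to 0 for each count. Keeping all probes gave 43 probes, 0 members and 0 list genes of 93. Restricting the test to the probes that passed the background flag 4 times gave 4 called members of 9, with 955 of 21164 probes called. A trend with a robust prior gave 4 of 10, with 1200 of 24421 probes. An adjusted p below 0.05 gave 5 of 10, with 1287 of 24421 probes. For the first 2 of these settings the share of probes called at any fold is not given here. The member counts there cannot be set against it. Csn3 A_51_P227275 then had a limma adjusted p of 0.0227 with all probes kept and 0.0453 to 0.0486 with a column left out, and Xdh A_51_P312121 0.0249 and 0.0268 to 0.0508. The single column then left in a line is given the spread of the other line.

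With the replicate number as a block the table gave 0 probes, 0 members and 0 list genes, with limma adjusted p of 0.0299 for Csn3 and 0.0313 for Xdh. The deviations of arrays with the same number from the means of their lines correlated at 0.706 in the scanner files and 0.430 in the table. With 2 pairs and no label that ties a batch to a number, the numbers were not taken to pair the samples. Over the bright probes, however, the scanner arrays labelled replicate 1 differed from each other by less than duplicates of a line did.

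The scanner files gave 0 calls under each of their alternatives except the table itself, with 1040 probes and 2 members. That probe count has the 2-fold limit and the member count has none. The table also reversed the scanner signs of Wap A_51_P407704 (-0.35) and Stat5b A_52_P663027 (1.87), and normexp that of Stat5a (0.020). Leaving out an array moved the scanner difference across 0 for Lalba (-0.35 to 0.031), Stat5a (-0.14 to 0.14), Stat5b A_51_P281938 (-0.15 to 0.098) and A_52_P663027 (-0.68 to 0.29), and, without shGR-19 replicate 2, for Xdh A_51_P312121 (-3.67 to 1.13) and A_52_P249965 (-3.51 to 1.07). It kept the sign but moved the scanner difference by over 1.5 times for Prlr A_52_P458279 (-0.49 to -0.097), Wap A_51_P407704 (0.056 to 0.20) and Stat5b A_52_P53698 (0.0059 to 0.42). In the table it crossed 0 for Stat5b A_51_P281938 (-0.26 to 0.041, without EV-50 replicate 2) and A_52_P663027 (-0.13, without shGR-19 replicate 1, to 3.88). With both arrays numbered 1 left out, an alternative chosen after seeing the data, 1350 scanner probes in place of 537 and 2 members as before were more than 2-fold apart, without a test. The cause was not tested for any of these.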

Other observations

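A further probe is described in the array annotation as Btn1a1 but carries the name ENSMUST00000110434, so it was not a member. It was well above background on all 4 arrays, at levels of -2.14 and -5.41 in EV-50 and -2.21 and -5.11 in shGR-19, and so differed by replicate label and not by line. Its table difference was -0.12.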
